A study of Homo sapiens with 4 samples.

Results

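The nuclear lamina and inner nuclear membrane genes described here are the 10 genes LMNA, LMNB1, LMNB2, EMD, TMPO, LEMD2, LEMD3, LBR, SUN1 and SUN2, taken by symbol from the 59050 genes of a count table of RCC4 cells. RCC4 is an established human clear cell renal cell carcinoma (ccRCC) line. Its cells carried a Tet-pLKO-puro lentiviral vector with a doxycycline-inducible hairpin directed at PML (shPML#1, called shPML) or a scrambled hairpin (shCtrl), and both conditions received doxycycline at 100 ng/ml for 96 h. Bulk populations selected with puromycin were used rather than clones, and the 2 experiments, each with its own lentiviral infection, gave 2 libraries of each condition. A single PML hairpin was sequenced, so an effect of PML loss and an effect particular to that hairpin cannot be told apart in these libraries.

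The nuclear lamina is a meshwork of lamin filaments that lines the inner nuclear membrane, supports the shape of the nucleus and holds silent chromatin at its edge. B-type lamins come from LMNB1 and LMNB2 and stay anchored in the membrane by a farnesyl group, whereas LMNA gives lamin A and lamin C by splicing. Proteins with a LEM domain, the lamin B receptor and the SUN proteins connect the lamina to chromatin, to the membrane and to the cytoskeleton, and a fall in LMNB1 is widely used as a marker of senescent cells.

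All 10 genes passed the filter on low counts, out of 16516 genes that did, and they took between 0.126% and 0.193% of the counted reads of a library. Libraries held from 27781193 to 69870617 counted reads. Levels are given as CPM, the counts of a gene scaled to the size of its library after TMM normalization. PML, the targeted gene (chromosome 15, 73994673 to 74047812, GRCh38), was at 93.1 and 136 CPM in the shCtrl libraries of experiments 1 and 2 and at 54.9 and 87.6 CPM in the shPML libraries, or 58.9% and 64.4% of control. In the fit by condition alone PML had a log2 fold change of -0.69 (standard error, SE, 0.30) with an adjusted p of 0.320, from the quasi-likelihood test of edgeR after Benjamini-Hochberg adjustment over all genes tested. A second fit that takes the experiment as a block, called the blocked fit below, gave -0.70 (SE 0.11) with an edgeR adjusted p of 4.19e-07. With 4 libraries the blocked fit leaves little replicate spread for each gene, so its p-values rest largely on spread estimated across all genes. The renal carcinoma markers PAX8, PAX2, CA9, NDUFA4L2, VIM, KRT8 and KRT18 were counted in every library, with summed levels from 4536 to 7837 CPM. Most of each sum was VIM, at 3227 to 5875 CPM.

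One library stood apart. The leukocyte markers PTPRC, CD3E and LYZ summed to 98.0 CPM in shPML of experiment 2, and to between 0.0278 and 0.139 CPM in the other 3 libraries. LYZ, at 85.4 CPM, and PTPRC, at 12.6 CPM, made up that sum, and these 2 markers had 10 counts or more there. CD3E had no count in any library. The endothelial markers PECAM1, CDH5 and VWF summed to 4.36 CPM in that library and to at most 0.389 CPM elsewhere. PECAM1 alone, at 4.11 CPM, made up nearly all of the 4.36 CPM. CDH5 had no count in that library, and VWF was at 0.255 CPM there and at 0.389 CPM in shCtrl of experiment 2. The neuronal markers RBFOX3 and SNAP25 summed to between 1.92 and 2.14 CPM in all 4. A list of 10 myeloid genes, added after these values were seen, holds PTPRC and LYZ again, and its other 8 genes summed to 99.8 CPM there and to between 0.868 and 1.62 CPM in the others. The part of these transcripts in the differences of experiment 2 was not tested, so values within experiment 1 are given beside the results that follow.

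LMNB1 was the member that changed most. It lies on chromosome 5 of GRCh38 (126777136 to 126837020, plus strand) and its promoter window is shown here beside those of 3 other members, because LMNB1 and TMPO were the members called lower in the blocked fit, whereas LMNA and LEMD3 were the members higher in shPML in both experiments. Each line gives 30 bases along the gene's strand from RefSeq promoters (GRCh38.p14), with the searched word in capitals. LMNA and LEMD3 also held CCAAT or its reverse, outside the bases shown.
LMNB1, chr5:126776987-126777016: gcctgctccccATTGGcccatggtagtcac
TMPO, chr12:98515547-98515576: cccgtcgcccgCCAATggcggcgcgcgttc
LMNA, chr1:156082540-156082569: ggagttgtagtTTCCCGCccttgggggcgc
LEMD3, chr12:65169439-65169468: caggtggctctTTCCCGCtcaggtgagctc

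The words TTCCCGC and TTGGCGC (E2F-type), TTTGAA (the CHR element) and CCAAT (the NF-Y box) were searched on both strands from 250 bases before to 50 bases after each annotated start. For LEMD2 and SUN2 every window lay inside the gene as counted, so other starts of these genes may not have been searched. CCAAT or its reverse ATTGG occurred in 6 of the 9 members with a promoter entry, which were LMNA, LMNB1, EMD, TMPO, LEMD3 and SUN2, in 39.7% of 27305 genes, and in 43.1% of the 10632 of these that passed the filter on low counts. TTCCCGC occurred in LMNA and LEMD3, against 7.82% of all genes and 12.5% of those that passed the filter. TTGGCGC occurred in none of the 9, against 3.66% and 5.98%. TTTGAA occurred in LMNB2 and SUN2, against 18.2% and 13.5%. The windows of LMNB1 and TMPO held CCAAT and none of the other 3 words, and no match overlapped a match to another word. CCAAT did not separate the members by direction. It was also in the windows of LMNA and LEMD3, which were higher in shPML both times, and of EMD and SUN2, which were not called.

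LMNB1 fell in shPML in both experiments, and by nearly the same factor. Its level was 93.7 CPM in shCtrl and 22.3 CPM in shPML of experiment 1, and 110 CPM in shCtrl and 27.75 CPM in shPML of experiment 2. Both shPML libraries thus lay far below both shCtrl libraries, at 23.9% and 25.3% of their own controls. These levels rest on 5071 and 3943 reads in shCtrl and 1602 and 763 reads in shPML. The log2 ratio of shPML to shCtrl was -2.07 (95% counting interval -2.15 to -1.99) in experiment 1 and -1.98 (-2.09 to -1.87) in experiment 2. Such intervals cover counting error only. The fitted log2 fold change was -2.02 (SE 0.19, edgeR adjusted p = 0.0484), and in the blocked fit -2.03 (SE 0.12, edgeR adjusted p = 1.89e-21). Among the 16516 genes tested, 160 (0.969%) had a lower log2 fold change in the blocked fit. The value of 0.0484 was the smallest adjusted p of any gene without the block, where 55 genes were called lower and 13 higher. It does not single out LMNB1, because the adjustment can give genes of different p the same value. DESeq2 without a block also called LMNB1 lower, with an adjusted p of 1.93e-14. So did edgeR without a filter on low counts (adjusted p = 4.18e-18) and with at least 10 counts in every library (adjusted p = 0.0343). With RLE normalization in place of TMM edgeR called 0 genes in each direction. The adjusted p of LMNB1 was then 0.0501 from edgeR and the call was lost.

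Leaving out shCtrl of experiment 1, shCtrl of experiment 2 or shPML of experiment 2 also lost that call, with adjusted p of 0.126, 0.376 and 0.155 from edgeR, whereas without shPML of experiment 1 it was 0.0348. The log2 fold change of LMNB1 over these fits ranged from -2.18 to -1.88. In experiment 1, where the summed leukocyte markers were at most 0.139 CPM, LMNB1 was as low relative to its control as in experiment 2. Because RNA came from bulk cultures, fewer cells with LMNB1 mRNA and less of it per cell cannot be told apart.

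**Figure D1:**
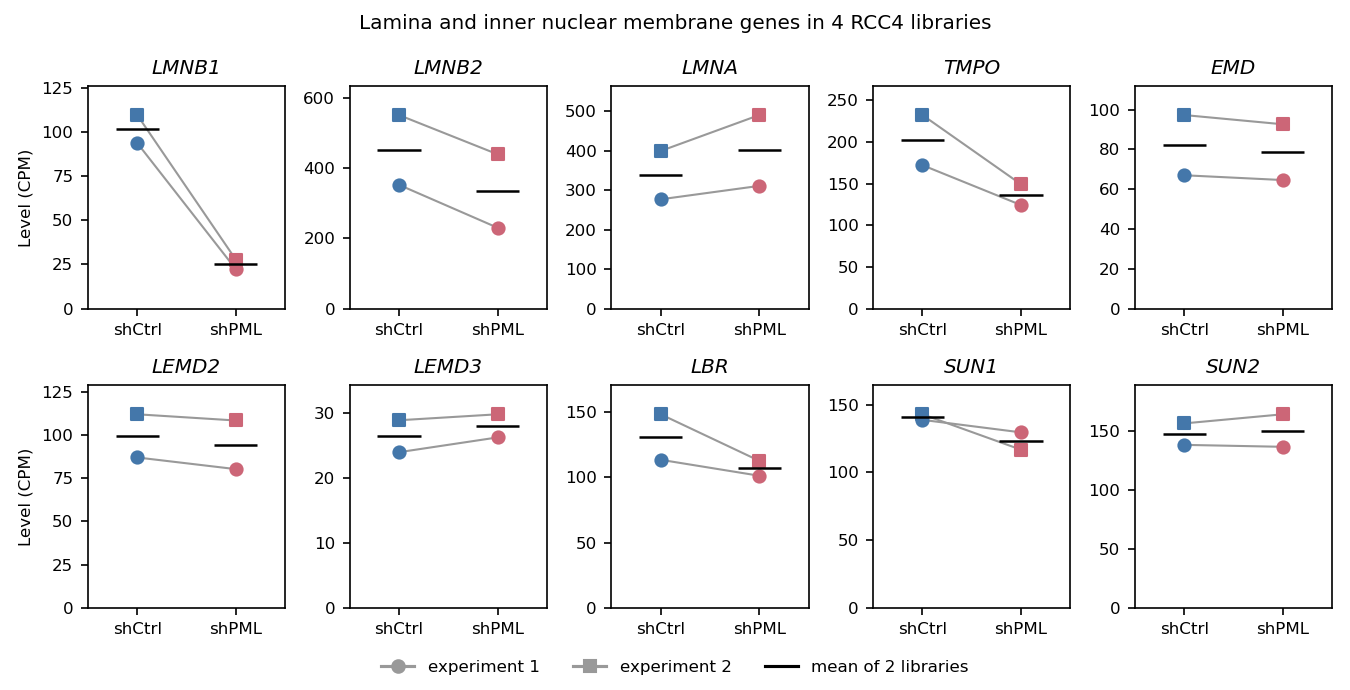
Level of each of the 10 genes (y axes, CPM, each starting at 0) in shCtrl and shPML; circles are experiment 1, squares experiment 2, grey lines join the libraries of an experiment and black bars are means of 2 libraries. LMNB1 drops from 93.7 and 110 CPM to 22.3 and 27.75 CPM, while EMD, LEMD2, LEMD3 and SUN2 stay between 92.3% and 109% of control.

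Over the 10 members, 1 (LMNB1) was called lower in shPML without the block and 0 were called higher, where a call needs both a log2 fold change beyond 0.5 and an adjusted p under 0.05. In the same fit 0.333% of all genes tested were called lower and 0.0787% higher, and 2 members, LMNB1 and TMPO, were lower at an unadjusted p under 0.05, as were 10.1% of all genes. DESeq2 without a block also called 1 member lower and 0 higher, against 5.58% and 3.6% of the genes to which it gave an adjusted p. In the blocked fit, edgeR called 2 members lower (LMNB1 and TMPO) and 0 higher, against 10.5% and 8.57% of all genes. DESeq2 with the block likewise called 2 lower and 0 higher, against 9.62% and 7.41%.

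For 4 members both shPML libraries were below both of shCtrl (LMNB1, TMPO, LBR and SUN1), a pattern shown by 24.9% of all genes, and above them for 0 members, against 23.1% of all genes. The other 6 overlapped between conditions. Within experiments, 7 members were lower in shPML both times (37.1% of all genes), 2 were higher both times (LMNA and LEMD3, against 37% of all genes) and SUN2 moved in opposite directions. The median log2 fold change of the members was -0.14 with and without the block, beside 0.00 and 0.01 for all genes, and it was -0.11 within experiment 1 and -0.18 within experiment 2. Apart from LMNB1, the blocked log2 fold changes of the members lay between -0.55 and 0.23.

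**Figure D2:**
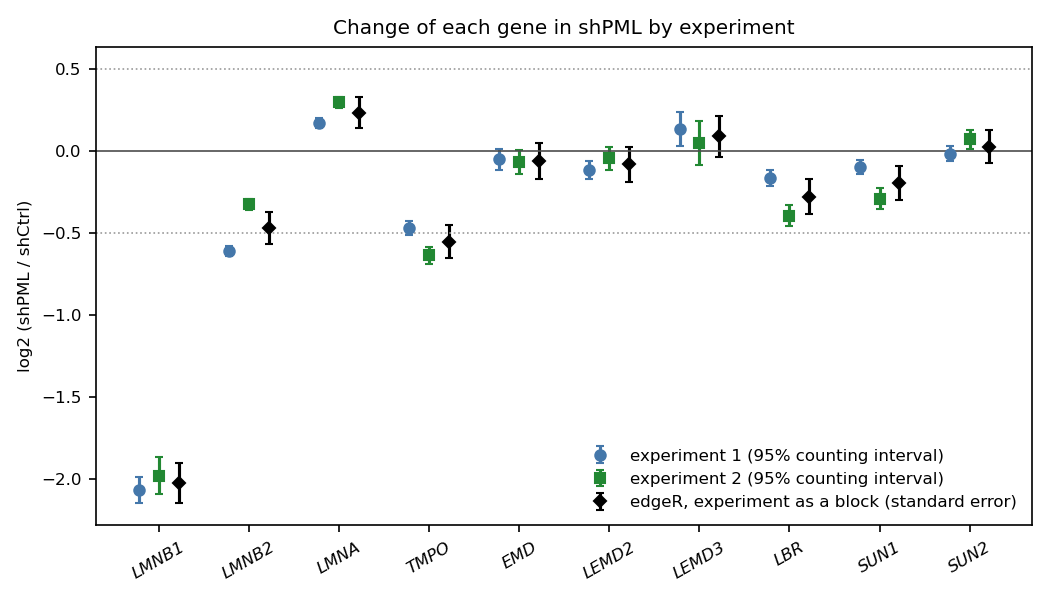
Log2 ratio of shPML to shCtrl (y axis) for each gene in experiment 1 (blue circles) and experiment 2 (green squares) with 95% counting intervals, and the edgeR log2 fold change with the experiment as a block (black diamonds) with its standard error (SE); dotted lines mark 0.5 in each direction. LMNB1 sits near -2 in both experiments, whereas the other 9 genes lie between -0.64 and 0.30.

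The other B-type lamin, LMNB2 (chromosome 19, 2428166 to 2456959, minus strand), was lower in shPML in each experiment but by less. It was at 352 CPM in shCtrl and 230 CPM in shPML of experiment 1, and at 550 and 439 CPM in experiment 2. The shPML library of experiment 2 was above the shCtrl library of experiment 1, so the conditions overlapped although shPML was at 65.4% and 79.7% of its own control. The log2 fold change was -0.43 (SE 0.37, edgeR adjusted p = 0.633) without the block. With the block it was -0.47 (SE 0.10, edgeR adjusted p = 8.77e-05), short of the threshold of 0.5 on the fold change. Within experiment 1 the log2 ratio was -0.61 (-0.64 to -0.58) and within experiment 2 it was -0.33 (-0.36 to -0.29), and these counting intervals do not overlap.

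LMNA (chromosome 1, 156082578 to 156140089, plus strand), the gene of the A-type lamins, was slightly higher in shPML each time. Its level was 277 CPM in shCtrl and 311 CPM in shPML of experiment 1, and 399.8 and 491 CPM in experiment 2, which is 112% and 123% of control. Here too the spread between experiments exceeded the difference between conditions. The log2 fold change was 0.24 (SE 0.29, edgeR adjusted p = 0.753) and 0.23 with the block (SE 0.10, adjusted p = 0.0591), and LMNA was not called. DESeq2 with the block gave an adjusted p of 0.0492 at a log2 fold change of 0.24, which is also no call. Counts are per gene, so lamin A and lamin C mRNA were not separated.

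Levels of different genes were compared per kilobase of exon (CPM per kb). On that scale the 3 lamin genes together amounted to 173 and 250.5 CPM per kb in shCtrl and to 131 and 221 CPM per kb in shPML of experiments 1 and 2. LMNB1 made up 18.1% and 14.7% of this sum in shCtrl and 5.72% and 4.22% in shPML. The share of LMNA was 38.0% and 37.9% in shCtrl and 56.4% and 52.9% in shPML. LMNB2 made up 43.8% and 47.4% in shCtrl and 37.9% and 42.9% in shPML. So LMNB2 was the most abundant lamin mRNA in both control libraries and LMNA in both shPML libraries.

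**Figure D3:**
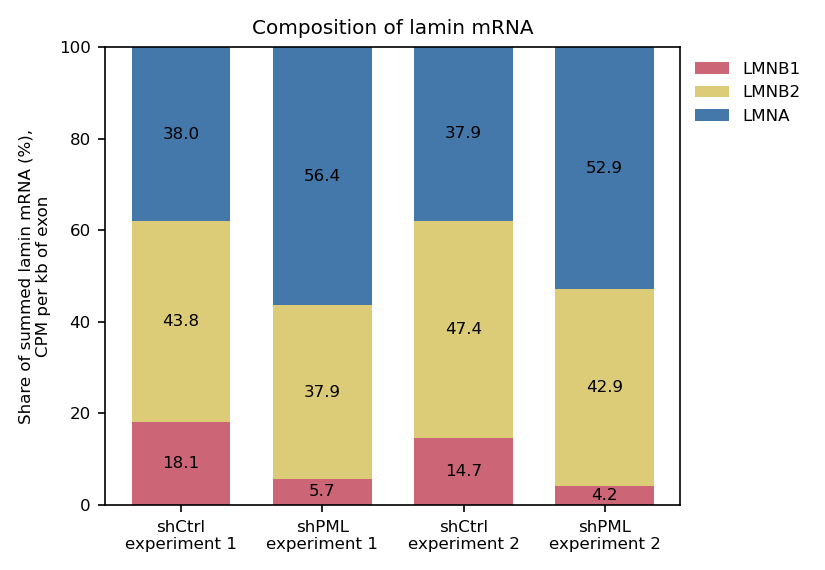
Share of each lamin gene (y axis, percent) in the summed lamin mRNA of each library, computed from CPM per kb of exon. The LMNB1 share (bottom) is 18.1% and 14.7% in shCtrl and 5.7% and 4.2% in shPML, and the LMNA share (top) is largest in the shPML libraries.

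The ratio of LMNA to LMNB1 within a library was 2.10 and 2.59 in shCtrl and 9.87 and 12.5 in shPML. This is a log2 difference of 2.26 (2.23 in experiment 1 and 2.28 in experiment 2). LMNB2 over LMNB1 went from 2.42 and 3.23 to 6.62 and 10.2, a log2 difference of 1.55 (1.45 and 1.65). LMNA over LMNB2 went from 0.868 and 0.8005 to 1.49 and 1.23, a log2 difference of 0.70 (0.78 and 0.62). For each of the 3 ratios the libraries of the conditions did not overlap, and the exact two-sided permutation test gave p = 0.333, the smallest that 2 libraries against 2 allow.

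Of the 4 LEM-domain genes, TMPO had the largest change. TMPO (chromosome 12, 98515512 to 98550379, plus strand) encodes the lamina-associated polypeptides 2 (LAP2), which bind lamins and the chromatin protein BAF. It was at 172 CPM in shCtrl and 124 CPM in shPML of experiment 1 and at 232 and 149 CPM in experiment 2. Both shPML libraries were below both shCtrl libraries, at 72.2% and 64.2% of control. The log2 fold change was -0.56 (SE 0.21, edgeR adjusted p = 0.253) without the block and -0.55 (SE 0.10, adjusted p = 1.09e-05) with it, so TMPO was called only with the block. The log2 ratio was -0.47 (-0.51 to -0.43) in experiment 1 alone and -0.64 (-0.69 to -0.58) in experiment 2. TMPO shares 542 exonic bases, 7.53% of its exons, with TMPO-AS1 on the opposite strand, which had from 141 to 382 counts per library beside 4106 to 9325 for TMPO. The strand setting of the counting is not given in the sources used here, and counts of TMPO isoforms were not separated.

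The remaining LEM-domain genes stayed between 92.3% and 109% of control within each experiment. EMD (chromosome X, 154379197 to 154381523, plus strand) encodes emerin, which is affected in an X-linked muscular dystrophy. It was at 67.0 and 97.3 CPM in shCtrl and at 64.6 and 92.7 CPM in shPML, with a blocked log2 fold change of -0.06 (SE 0.11, edgeR adjusted p = 0.737). LEMD2 (chromosome 6, 33771213 to 33789130, minus strand), which takes part in resealing the nuclear envelope after mitosis, was at 86.9 and 112 CPM in shCtrl and at 80.2 and 108 CPM in shPML. Its blocked log2 fold change was -0.08 (SE 0.11, edgeR adjusted p = 0.629).

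LEMD3 (chromosome 12, 65169583 to 65248355, plus strand), also known as MAN1 and an antagonist of SMAD signalling, had the lowest level per kb of exon among the members. It was at 23.9 and 28.8 CPM in shCtrl and at 26.2 and 29.8 CPM in shPML, with a blocked log2 fold change of 0.09 (SE 0.13, edgeR adjusted p = 0.659). For EMD, LEMD2 and LEMD3 the conditions overlapped, and the libraries of experiment 2 were above those of experiment 1 in both conditions.

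LBR (chromosome 1, 225401502 to 225428855, minus strand) encodes the lamin B receptor, a membrane protein that binds B-type lamins and the heterochromatin protein HP1 and also acts as a sterol reductase. It was at 113.4 CPM in shCtrl and 101 CPM in shPML of experiment 1, and at 148 and 113 CPM in experiment 2. The shPML libraries were lower, by a narrow margin between shPML of experiment 2 (112.6 CPM) and shCtrl of experiment 1 (113.4 CPM). Its log2 fold change was -0.29 (SE 0.19, edgeR adjusted p = 0.516) and -0.28 with the block (SE 0.11, adjusted p = 0.0360), short of the fold threshold. DESeq2 with the block gave an adjusted p of 0.0843. The log2 ratio was -0.16 (-0.21 to -0.12) in experiment 1 and -0.40 (-0.46 to -0.33) in experiment 2, the experiment whose shPML library held the leukocyte markers.

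The SUN proteins span the inner membrane and bind nesprins of the outer membrane, which makes the bridge between nucleus and cytoskeleton called the LINC complex. SUN1 (chromosome 7, 816615 to 874934, plus strand) was at 139 and 143 CPM in shCtrl and at 129.6 and 117 CPM in shPML. Both shPML libraries were lower, and the blocked log2 fold change was -0.19 (SE 0.10, edgeR adjusted p = 0.159). SUN2 (chromosome 22, 38734725 to 38794143, minus strand) was at 139 and 157 CPM in shCtrl and at 137 and 165 CPM in shPML, so its log2 ratio was -0.017 (-0.061 to 0.026) in experiment 1 and 0.070 (0.013 to 0.13) in experiment 2, and the first counting interval spans 0. Its blocked log2 fold change was 0.03 (SE 0.10, edgeR adjusted p = 0.888). SUN2 shares from 71 to 450 exonic bases with each of 3 opposite-strand genes of at most 25 counts and 76 bases with DNAL4, so a small part of its reads is uncertain.

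The levels of most members also differed between experiments. In 9 of the 10 members, all but SUN1, both libraries of experiment 2 were above their counterparts of experiment 1, a pattern shown by 34.7% of all genes tested. The common dispersion of the counts was 0.0813 without the block and 0.0137 with it, and the standard errors of the 10 members fell from between 0.15 and 0.37 to between 0.10 and 0.13.

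**Figure D4:**
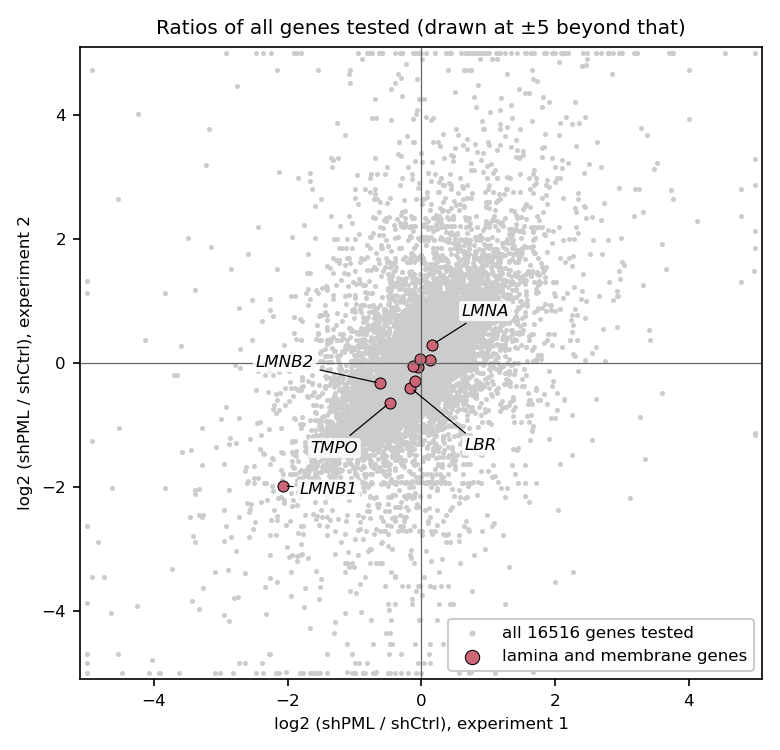
Log2 ratio of shPML to shCtrl in experiment 1 (x axis) against experiment 2 (y axis) for the 16516 genes tested (grey points) and the 10 lamina and inner membrane genes (red). LMNB1 lies at the lower left, at -2.07 and -1.98, and the other members lie within the central cloud.

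Among levels per kilobase the order of the members in shCtrl was LMNB2 (mean 97.3 CPM per kb), LMNA (80.5), EMD (59.6), LMNB1 (34.1), LBR (33.6), SUN2 (32.6), LEMD2 (31.4), SUN1 (29.6), TMPO (28.1) and LEMD3 (5.52). Each of these overlapped with the next in the range of its 2 libraries, except EMD with LMNB1 and TMPO with LEMD3. In shPML the order was LMNA (95.3), LMNB2 (72.2), EMD (57.0), SUN2 (33.3), LEMD2 (29.8), LBR (27.4), SUN1 (25.9), TMPO (19.02), LMNB1 (8.40) and LEMD3 (5.85). There EMD and SUN2, SUN1 and TMPO, TMPO and LMNB1, and LMNB1 and LEMD3 did not overlap, whereas the other neighbours did. LMNB1 thus went from rank 4 to rank 9 by this measure, whose order depends on the exon lengths used.

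Genes whose pattern over the 4 libraries was most like that of LMNB1 included CD81 and AC016571.1. Likeness was the root mean square difference of centred log2 CPM from that of LMNB1, which was 0.0418 for CD81, the smallest of any gene tested, and 0.0699 for AC016571.1. CD81 was at 210 and 229 CPM in shCtrl and at 49.6 and 59.1 CPM in shPML. AC016571.1 was at 0.222 and 0.250 CPM in shCtrl and at 0.0139 and 0.0364 CPM in shPML. The log2 CPM used a pseudocount of 2, which shrinks differences at levels this low. The likeness of AC016571.1 to LMNB1 therefore rests in part on that pseudocount.

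Of 68 other nuclear envelope genes on 5 lists, 61 were tested. Without the block 0 of them were called by edgeR, and 12 were lower and 2 higher at an unadjusted p under 0.05, beside 10.1% and 7.8% of all genes. DESeq2 without a block called 5 lower and 1 higher, beside 5.58% and 3.6% of the genes to which it gave an adjusted p. In the blocked fit 14 were called lower (23.0% of the 61, against 10.5% of all genes) and 2 higher (3.28%, against 8.57%). Their median log2 fold change was -0.22 without the block and -0.21 with it, and their median log2 ratio within experiment 1 was -0.19. Within both experiments, 41 were lower and 10 higher in shPML, beside 37.1% and 37% of all genes.

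Nesprins, the partners of the SUN proteins, moved in both directions. Of the 4 tested genes on the list of nesprins and other SUN genes, 2 were called higher and 1 lower with the block. Among all genes, 8.57% were called higher and 10.5% lower in that fit. SYNE1 (nesprin-1) was at 42.6 and 24.8 CPM in shCtrl and at 68.7 and 55.7 CPM in shPML, a blocked log2 fold change of 0.92 (edgeR adjusted p = 1.24e-08). SYNE2 (nesprin-2) was at 69.7 and 43.8 CPM in shCtrl and at 39.8 and 36.6 CPM in shPML, a blocked log2 fold change of -0.54 (edgeR adjusted p = 0.000396). SPAG4, a further SUN-domain gene, was at 23.3 and 26.9 CPM in shCtrl and at 42.9 and 42.8 CPM in shPML (blocked log2 fold change 0.78, edgeR adjusted p = 6.85e-07). The last tested gene of the list, SYNE3, was at most 0.764 CPM. Each of the 3 called genes was separated between conditions in all libraries, with log2 ratios of 0.69, -0.81 and 0.88 for SYNE1, SYNE2 and SPAG4 within experiment 1. Without the block edgeR called none of them, whereas DESeq2 called SPAG4 (log2 fold change 0.78, adjusted p = 0.00838).

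Of the 5 genes that process lamins (ZMPSTE24, ICMT, FNTA, FNTB and RCE1, which trim and modify their C-terminal ends), 0 were called by edgeR with or without the block, 0 had an unadjusted p under 0.05 without it, and the blocked log2 fold changes ran from -0.34 to 0.33. Among 14 tested genes of other envelope membrane proteins, 4 were called lower with the block and 0 higher, against 10.5% and 8.57% of all genes. The 4 were NEMP1 at -0.92 (adjusted p = 3.66e-09), TMEM201 at -0.79 (adjusted p = 7.22e-07), CTDNEP1 at -0.59 (adjusted p = 1.06e-05) and CNEP1R1 at -0.53 (adjusted p = 0.00646), all log2 fold changes from edgeR. Within experiment 1 their log2 ratios were -0.96, -0.82, -0.57 and -0.39, and the median of the 14 genes was -0.089. CTDNEP1 is the catalytic subunit and CNEP1R1 the regulatory subunit of a phosphatase that acts on lipin at the nuclear envelope. CNEP1R1 fell outside the rule for named genes and was added after its value was seen.

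Of 7 chromatin proteins that bind the lamina or its membrane partners, 2 were called lower with the block and 0 higher. The shares over all genes were 10.5% and 8.57%. CBX1, the HP1 protein HP1-beta, had a blocked log2 fold change of -0.999 (edgeR adjusted p = 3.42e-10), and VRK1, the kinase of BAF, had -0.84 (edgeR adjusted p = 6.73e-06). Within experiment 1 their log2 ratios were -0.76 and -0.70. The list's median was -0.43 in the blocked fit and -0.34 within experiment 1. Of 31 tested nuclear pore genes, 7 were called lower with the block and 0 higher, against 10.5% and 8.57% of all genes. Their median was -0.21 in the blocked fit and within experiment 1. The smallest p values belonged to NDC1, a membrane nucleoporin, at -0.84 (adjusted p = 1.54e-08), NUP62, a central channel protein, at -0.70 (adjusted p = 8.56e-08), and NUP188, of the inner ring, at -0.68 (adjusted p = 1.69e-06), all from edgeR. Within experiment 1 these 3 had log2 ratios of -0.71, -0.81 and -0.62. LMNB1, at -2.03 in the same fit, was lower than every one of the 61 other envelope genes tested, whose range was -0.999 to 1.10.

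**Figure D5:**
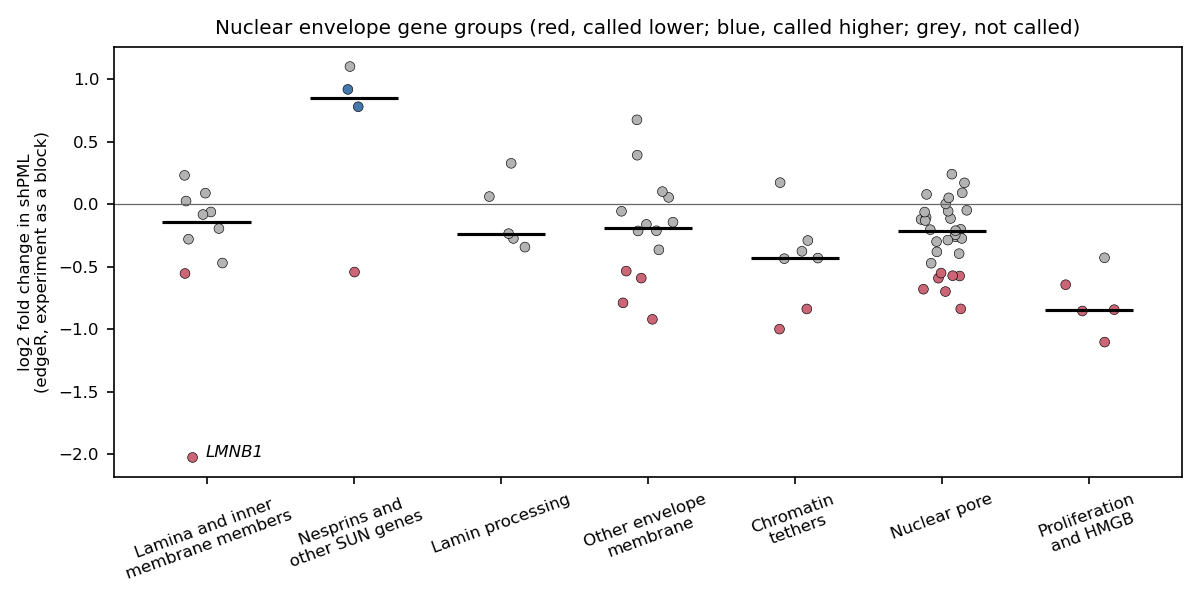
Log2 fold change in shPML with the experiment as a block (y axis) for the tested genes of each group (x axis); red points were called lower, blue called higher and grey not called, and black lines are medians. LMNB1 is at -2.03, below every other point, and the blue points are SYNE1 and SPAG4.

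Proliferation genes and the chromatin proteins HMGB1 and HMGB2 were lower in shPML, by less than LMNB1. Of 5 such genes, edgeR called 4 lower with the block (against 10.5% of all genes) and 0 without it, where the same 4 were lower at an unadjusted p under 0.05. DESeq2 without a block called those 4 lower, with adjusted p from 0.00142 to 0.0218. MKI67, the Ki-67 antigen, was at 485 and 374 CPM in shCtrl and at 248 and 228 CPM in shPML (blocked log2 fold change -0.84, edgeR adjusted p = 2.1e-10). TOP2A, a topoisomerase of dividing cells, was at 303 and 232 CPM in shCtrl and at 145 and 105 CPM in shPML (blocked log2 fold change -1.10, edgeR adjusted p = 7.57e-14). HMGB1 had -0.64 (adjusted p = 6.22e-07) and HMGB2 -0.85 (adjusted p = 1.96e-09) in the same fit. PCNA, the replication clamp, had -0.43 (edgeR adjusted p = 0.000422), short of the fold threshold. Within experiment 1 the log2 ratios of HMGB1, HMGB2 and PCNA were -0.53, -0.81 and -0.42. LMNB1 was at 23.9% and 25.3% of control, where TOP2A was at 47.8% and 45.4% and MKI67 at 51.1% and 60.9%. The part of a change in proliferation in the level of LMNB1 was not tested.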

How the data were processed

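Sequencing covered 4 libraries of RCC4 cells, 2 with shCtrl and 2 with shPML, 1 of each per experiment. The authors deposited raw counts of reads per gene, without normalization. According to the methods and the submitters' processing notes, they made stranded mRNA libraries, used Trimmomatic 0.39 for trimming, STAR for alignment (GRCh38) and featureCounts 1.6.4 for counting on Gencode genes; the Gencode number and strand setting are not given in the sources used here. Columns without a number were assigned to replicate 1 by elimination. Corrected sample labels were used after a swap recorded by the submitters. PML counts were lower in the column named shPML in each experiment.

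The analysis used R 4.3.3, edgeR 4.0.16 (filterByExpr, TMM, quasi-likelihood test, Benjamini-Hochberg adjustment over 16516 genes), DESeq2 1.42.0, Python 3.11.15 and pandas 2.3.3. Calls needed a log2 fold change beyond 0.5 and an adjusted p under 0.05. Both fits were also run on simulated counts, where 200 genes had a log2 change of 1. Without the block 0 of these were recovered, with 0 false calls. The blocked fit recovered 197, with 7 false calls. The simulated counts were drawn from the means of each experiment with the dispersions of the blocked fit, so that fit was favoured in advance. For the real counts the fit without the block called 55 genes lower and 13 higher, unlike the simulated ones. The simulation therefore does not show which fit suits the real libraries better. The main design has no block. Replicate numbers were read as the 2 experiments of the methods; deviations of the replicate 1 libraries from their group means had a correlation of 0.603 across genes, so the blocked fit is given beside it. Standard errors were computed as the absolute log2 fold change divided by the square root of the F statistic of the edgeR test. Counting intervals are exact binomial (95%) and cover counting error only.

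Depth ran from 27781193 to 69870617 reads. Coordinates are those of the count table; promoters are RefSeq entries, which 9 of the 10 members matched. The members and lists were chosen with earlier results of these data known. Named genes were all members, PML, up to 3 genes per other envelope list with the smallest blocked p among those called in the same direction in both experiments, the 5 proliferation and HMGB genes, and the 3 genes nearest to LMNB1. Some genes within these rules are not reported here. Protein sequences were not used here. Alternatives were the block, DESeq2, RLE size factors, 2 count filters, 2 fold thresholds, each library left out, and, chosen after seeing the data, experiment 1 alone.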

Additional observations from a re-analysis of the deposited data

Results flagged for a closer look

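SUN2 moved in opposite directions in the 2 experiments, with a log2 ratio of shPML to shCtrl of -0.0173 in replicate 1 and 0.0695 in replicate 2. The 95% counting interval of replicate 1, -0.061 to 0.026, spans 0, so that direction is within counting error. The difference between the experiments was not tested.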

How the results depend on the processing

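The experiment as a replicate block moved the counts most: genes called higher in shPML went from 13 to 1415 and genes called lower from 55 to 1735, members called lower from 1 to 2, and other envelope genes from 0 to 2 higher and from 0 to 14 lower. DESeq2 gave 545 genes higher and 845 lower, and 1 other envelope gene higher and 5 lower. DESeq2 with the block gave 998 and 1297 genes, 2 members lower, and 2 and 13 other envelope genes. RLE normalization gave 0 genes in each direction and 0 members lower. Without a filter on low counts there were 891 genes higher and 946 lower, and 2 and 7 other envelope genes. With at least 10 counts in every library there were 53 and 144 genes.

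Leaving out each library in turn leaves 1 library in a group, which is assumed to vary like the other group, and lets the difference between experiments enter the fold change. These fits gave 0 to 187 genes higher, 0 to 61 lower, 0 to 1 members lower, and a median of the members from -0.33 to 0.033. The sign turned in some of these fits for LMNA (range -0.12 to 0.53), EMD (-0.35 to 0.22, with 0.17 in a further fit), LEMD2 (-0.31 to 0.11), LEMD3 (-0.030 to 0.22, with -0.0085 in a further fit) and SUN2 (-0.11 to 0.15, with -0.043 in a further fit), and for SUN2 also within experiment 1 (-0.017), none of which was called. LMNB2 ranged from -0.97 to -0.05, TMPO from -0.75 to -0.34 and PML from -1.06 to -0.40. PML was called without a filter on low counts, with an adjusted p of 0.0237 from edgeR. The block turned no member's direction. Among the members it changed only the call of TMPO, and it also changed that of PML, the targeted gene. The cause of these differences between settings was not tested.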
